A study of Homo sapiens with 3 samples.

Results

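MG-OKS is described in the series title as an artificially generated osteosarcoma line that resembles cancer stem cells, and its libraries are labelled as mesenchymal cells. The comparison described here sets MG-OKS cells transfected with a scrambled siRNA against untransfected MG-OKS cells, which are the wild type of the labels. The scrambled cells received 1.2 μL of a non-targeting siRNA with 7.2 μL of the lipid reagent Lipofectamine RNAiMAX in Opti-MEM, and fresh complete medium replaced the mixture after 24 h. Both groups were kept in DMEM with 10% fetal bovine serum, and whether the untransfected cells received the lipid reagent or the reduced-serum medium was not given in the sources used here. Each group was 1 library of stranded poly(A) mRNA sequencing. The siRNA, the reagent and ordinary variation between cultures therefore cannot be told apart, and every ratio below compares 2 libraries, not 2 conditions. The genes described were all those with at least 1 CPM of total counts in either library, which were 14047 of the 46427 genes in the deposited table. Levels given in CPM are counts scaled by TMM-adjusted library size. The remaining library of the series, from cells given an siRNA to SPRR1A with the same amounts of siRNA and reagent, was used only for values set beside the others.

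A small interfering RNA is loaded into an Argonaute protein, which uses it as a guide to find messenger RNA. A scrambled siRNA is designed to match no transcript over its full length, but the first bases of the guide, its seed, can still pair with short complementary stretches in 3′ untranslated regions (UTRs), as the seed of a microRNA does. Double-stranded RNA and the lipid carrier can also be sensed by the cell. RIG-I (DDX58), MDA5 (IFIH1), TLR3 and PKR (EIF2AK2) detect double-stranded RNA and feed the interferon and NF-kB pathways, and stress kinases feed the integrated stress response through ATF4. The lists described here cover these routes, the sterol and oxidative stress programmes and the identity genes of the line.

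The sequence shown first is the 7-base stretch GCAGTAC, which was over-represented in the 3′ UTRs of genes lower in the scrambled library, and it was singled out after the values had been seen. The windows below are on the transcribed strand, 5′ to 3′, from GENCODE release 29 transcripts on GRCh38, with GCAGTAC in capitals. They come from 9 genes that were at least 3-fold lower in the scrambled library, and EMP2 has 3 of them.
EMP2 (chr16:10532864-10532886, minus strand): cttctgctGCAGTACagaatcca
EMP2 (chr16:10530828-10530850, minus strand): gttattggGCAGTACctgtctgt
EMP2 (chr16:10530146-10530168, minus strand): ccaccaatGCAGTACagggtgac
NKAIN1 (chr1:31181070-31181092, minus strand): ctcattttGCAGTACattaaaac
NID1 (chr1:235976210-235976232, minus strand): ttgcttctGCAGTACattggaac
STEAP3 (chr2:119263475-119263497, plus strand): aaatgtatGCAGTACtattcaga
CHPF (chr2:219539101-219539123, minus strand): gtatttatGCAGTACagtctgcc
SCAMP1 (chr5:78476415-78476437, plus strand): tataatatGCAGTACattatcca
IL6ST (chr5:55941039-55941061, minus strand): caacttcaGCAGTACctataaag
ALCAM (chr3:105575547-105575569, plus strand): tttatcaaGCAGTACatgaaagt
YWHAH (chr22:31957163-31957185, plus strand): ttcgttaaGCAGTACatcttgtg

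Sequencing depth was similar, with 36533542 counts over 21388 genes in the scrambled library and 40050593 counts over 22040 genes in the untransfected library. The share of counts on mitochondrially encoded protein genes was 2.65% in scrambled and 2.59% in untransfected cells, and that on ribosomal RNA genes was 1.10% in scrambled and 1.23% in untransfected cells. SPRR1A, the gene targeted in the remaining library, had 0 counts in all 3 libraries, and a floor of 3 counts corresponds to 0.0825 CPM after scrambled siRNA, against 0.0735 CPM in untransfected cells. Against the label of mesenchymal cells, all 5 fibroblast markers examined reached 1 TPM (the deposited level per transcript length) in both libraries. Basal keratin transcripts were also abundant, with KRT14 at 1439 TPM with the scrambled siRNA and 3739 TPM without transfection. Other defining keratinocyte genes were scarce, with KRT5 at 52 counts in scrambled and 227 counts in untransfected cells, TP63 at 86 counts in scrambled and 65 counts in untransfected cells, and E-cadherin (CDH1) at 2 counts in each library. Of 5 osteoblast markers examined, the regulator SP7 and the bone sialoprotein gene IBSP had 0 counts in both libraries. RUNX2 had 5.00 TPM in scrambled and 10.3 TPM in untransfected cells. BGLAP had 7 counts in scrambled and 29 counts in untransfected cells, and ALPL had 32 counts in scrambled and 39 counts in untransfected cells.

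Most genes had nearly the same level in both libraries. The median log2 ratio of scrambled to untransfected over the 14047 genes was 0.01, the median absolute log2 ratio was 0.22, and 11296 genes (80.4%) lay within 0.5 of 0. Genes were called by size, from a log2 ratio of 1 or more in either direction with a 95% counting interval that did not include equal levels. By this rule 213 genes (1.52%) were higher and 481 genes (3.42%) were lower in the scrambled library, together 694 genes (4.94%). Lower genes thus made up 69.3% of the calls. Among the 9914 genes with at least 10 CPM in the library where they were higher, 56 were higher and 158 lower, and among the 2415 genes with at least 100 CPM, 10 were higher and 32 lower. At least 4-fold differences were found for 28 higher and 50 lower genes. Intervals cover counting error only, from 1 library per group, and no difference has a replicate check. Reads carried no molecular identifiers, so the intervals do not cover amplification duplicates either.

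**Figure D1:**
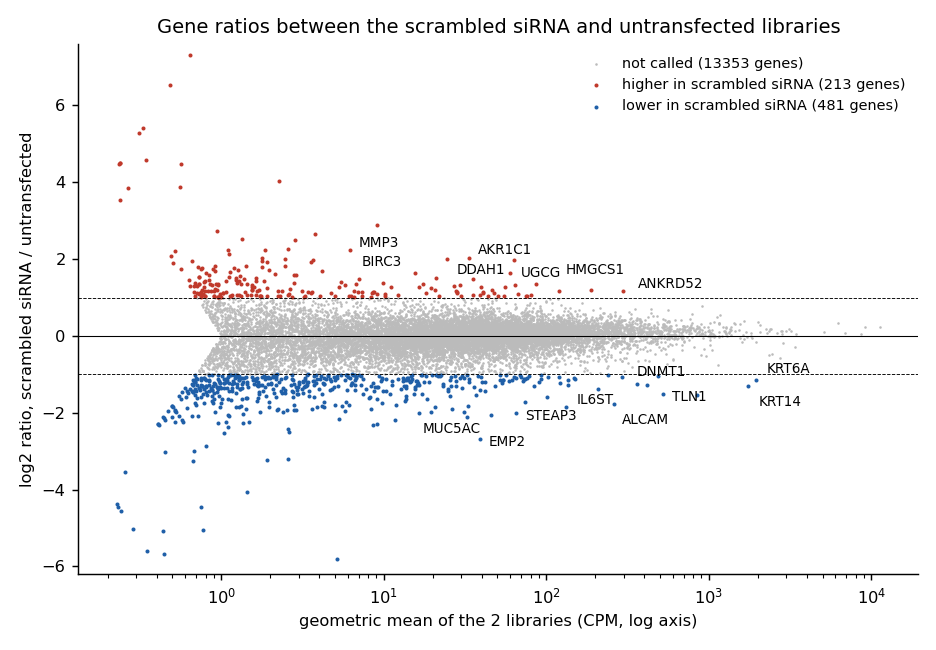
Log2 ratio of the scrambled siRNA to the untransfected library (vertical axis) against the geometric mean of both libraries in CPM (horizontal log axis), 1 point per gene for 14047 genes. Red points are the 213 genes called higher and blue points the 481 called lower, with dashed lines at a log2 ratio of 1 and -1, and the lower genes extend further into the abundant range.

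The gene farthest below among those with at least 10 CPM was EMP2, a tetraspan epithelial membrane protein (NCBI Gene 2013, chromosome 16, 10528422 to 10580598). It had 558 counts in the scrambled library, against 4051 in the untransfected library, or 15.4 CPM in scrambled and 99.2 CPM in untransfected cells, and was 6.46-fold lower (95% counting interval 5.91 to 7.07). Its relatives were nearly level, with EMP1 at 421 CPM in the scrambled library, against 395 CPM in untransfected cells and EMP3 at 153 CPM in scrambled and 158 CPM in untransfected cells. NID1, which encodes the basement membrane protein nidogen, had 15.7 CPM in scrambled cells and 67.7 CPM in untransfected cells and was 4.32-fold lower (3.94 to 4.73). STEAP3, an endosomal reductase of iron uptake, had 32.7 CPM after scrambled siRNA, against 130.4 CPM in untransfected cells and was 3.99-fold lower (3.75 to 4.25). The gel-forming mucin gene MUC5AC had 22.4 CPM with the scrambled siRNA and 93.1 CPM without transfection, a 4.16-fold difference (3.86 to 4.50). IL6ST encodes gp130, the shared signalling receptor of the interleukin-6 family, and had 69.3 CPM in the scrambled library, against 252 CPM in untransfected cells. It was 3.63-fold lower (3.47 to 3.79).

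Other genes among the 15 farthest below had varied roles. CHPF, a chondroitin polymerising factor, had 15.7 CPM in scrambled cells and 62.4 CPM in untransfected cells. HS6ST1, which sulphates heparan chains, had 17.4 CPM after scrambled siRNA, against 62.3 CPM in untransfected cells. The secretory carrier gene SCAMP1 had 9.88 CPM with the scrambled siRNA and 38.8 CPM without transfection. The septin gene SEPTIN5 had 4.10 CPM in scrambled and 20.2 CPM in untransfected cells. SEPT5-GP1BB, a readthrough gene that joins SEPTIN5 to a neighbour, had 475 counts in scrambled and 930 counts in untransfected cells. The 2 may share reads, so the value of SEPTIN5 is uncertain. TOP1MT, the mitochondrial topoisomerase, had 13.6 CPM in the scrambled library, against 51.0 CPM in untransfected cells. The remaining genes of the 15 were NKAIN1, NEURL1B, the water channel AQP1, ELFN1 and GRIP2, between 5.07-fold (NKAIN1) and 3.58-fold (GRIP2) lower.

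Several genes with many counts were also called lower. TLN1, the talin that couples integrins to actin, had 308 CPM in scrambled cells and 880 CPM in untransfected cells and was 2.86-fold lower (2.80 to 2.92). Its partner vinculin (VCL) was not called, at 364 CPM after scrambled siRNA, against 309 CPM in untransfected cells. DNMT1, the maintenance DNA methyltransferase, had 269 CPM with the scrambled siRNA and 651 CPM without transfection and was 2.42-fold lower (2.36 to 2.47), and DNMT3L, with 25 counts in scrambled and 104 counts in untransfected cells, was called lower too. DNMT3B, not called, had 21.5 CPM in scrambled and 14.9 CPM in untransfected cells. ALCAM, an adhesion molecule used as a marker of stem-like tumour cells, had 141 CPM in the scrambled library, against 487 CPM in untransfected cells and was 3.44-fold lower (3.34 to 3.55). Of the 14-3-3 adaptor genes, YWHAH had 40.7 CPM in scrambled cells and 135 CPM in untransfected cells and was 3.32-fold lower (3.14 to 3.52), while the other members kept were not called. The ribosomal RNA precursor RNA45SN3 had 496 CPM after scrambled siRNA, against 1442 CPM in untransfected cells. Near-identical rRNA copies share its reads and poly(A) selection removes most of its RNA, so its value is uncertain.

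Many of these genes share GCAGTAC, the stretch shown in the windows. A total of 12200 genes had an annotated 3′ UTR, of which 393 were lower and 154 higher, and all sequences of 7 bases were searched on the transcribed strand. GCAGTAC was held by 648 genes (5.31%). Its share was 20.9% among lower genes, 3.90% among higher genes and 4.81% among genes not called, and its ratio of 4.34 between lower and not called genes was the highest of the 15935 sequences held by at least 100 genes. The median log2 ratio of its 648 holders was -0.26, the lowest of the same 15935 sequences, against 0.02 for the other 11552 genes. Of the holders, 471 (72.7%) lay below 0 and 82 (12.7%) were called lower, against 47.0% below 0 and 2.69% called lower among the others. A further 6 holders (0.926%) were called higher, and most holders were not called in either direction. Since GCAGTAC was singled out with these values in view, its counts describe the libraries and carry no test. Holding it is mentioned below mainly for genes that lay lower, and its part in their levels was not tested.

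By difference of share, the sequence with the largest value was the GC-rich CCTGGGG, held by 38.2% of lower and 21.8% of not called genes. Its 2730 holders had a median log2 ratio of -0.04, against -0.26 for holders of GCAGTAC. The 3′ UTRs of lower genes had a median GC content of 50%, those of higher genes 39.6% and those of genes not called 42.6%. Holders of GCAGTAC had a median of 39.2% GC. Their median 3′ UTR length was 3258 bases, against 1522 bases for lower genes and 1362 bases for genes not called. Among the holders of CCTGGGG farthest below were EMP2, STEAP3 and CHPF, which also hold GCAGTAC, and NEURL1B, AQP1 and HS6ST1, which do not.

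The medians of the holders differed by copy number and context. These splits reuse the ratios on which GCAGTAC was singled out, so they are description and carry no test. The 3′ UTR lengths of the subsets were not compared. The 609 genes with 1 copy of GCAGTAC had a median log2 ratio of -0.23 and 11.8% were called lower, and the 39 genes with more copies had a median of -0.59 and 25.6% were called lower. Where the stretch was followed by A, as in 1 or more copies in 217 genes, the median was -0.37 and 19.8% were called lower, and where it was followed by other bases alone (431 genes) the median was -0.20 and 9.05% were called lower. Genes with GCAGTAC in the coding sequence but not in the 3′ UTR (1371 genes) had a median of -0.15 and 6.27% called lower, and the 10181 genes with it in neither had 0.04 and 2.21%. The reverse complement GTACTGC gave 766 holders with a median of -0.01, and genes with the inner 6 bases CAGTAC or GCAGTA but not the 7 had medians of -0.01 (2076 genes) and 0.01 (2626 genes). At 10 to 100 CPM in the untransfected library the median was -0.24 for holders and 0.03 for other genes, and at 100 CPM or more it was -0.26 for holders and 0.07 for the others.

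The share of holders was higher in bands farther below 0. GCAGTAC was held by 23.7% of genes with a log2 ratio below -1.5, by 19.7% of those between -1.5 and -1, and by 13.6% of those between -1 and -0.5. It was held by 5.54% of genes between -0.5 and 0 and by 2.80% of those between 0 and 0.5. Above these, the share was 2.62% between 0.5 and 1 and 3.90% above 1. Of the searched genes called lower at 100 CPM or more, 14 of 31 held it, among them ALCAM, TLN1 and DNMT1. Of the 15 genes farthest below, 8 held it, namely EMP2, NKAIN1, NID1, STEAP3, CHPF, SCAMP1, TOP1MT and IL6ST. None of 2370 human mature miRNAs in the RefSeq table has the seed complementary to it, but miRNA levels were not measured and a part for miRNAs was not tested. The sequence of the scrambled siRNA was not given in the sources used here, so whether GCAGTAC matches its seed was not tested.

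The holders were also measured in the SPRR1A siRNA library, where single genes varied. Set against the same untransfected library, the 648 holders had a median log2 ratio of -0.26 in the scrambled library and 0.08 in the SPRR1A siRNA library. STEAP3 had 32.7 CPM in the scrambled, 120 CPM in the SPRR1A siRNA and 130.4 CPM in the untransfected library. TLN1 had 308 CPM in the scrambled, 880 CPM in the SPRR1A siRNA and 880 CPM in the untransfected library. IL6ST had 216 CPM and YWHAH 124 CPM in the SPRR1A siRNA library. STEAP3, TLN1, IL6ST and YWHAH were low in the scrambled library and nearer each other in the SPRR1A siRNA and untransfected libraries. ALCAM was highest in the SPRR1A siRNA library, at 660 CPM. Other holders lay between their values in the scrambled and untransfected libraries, with EMP2 at 67.1 CPM, NID1 at 35.4 CPM and SCAMP1 at 22.8 CPM in the SPRR1A siRNA library. DNMT1 was low in both transfected libraries, at 269 CPM in the scrambled, 337 CPM in the SPRR1A siRNA and 651 CPM in the untransfected library.

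**Figure D2:**
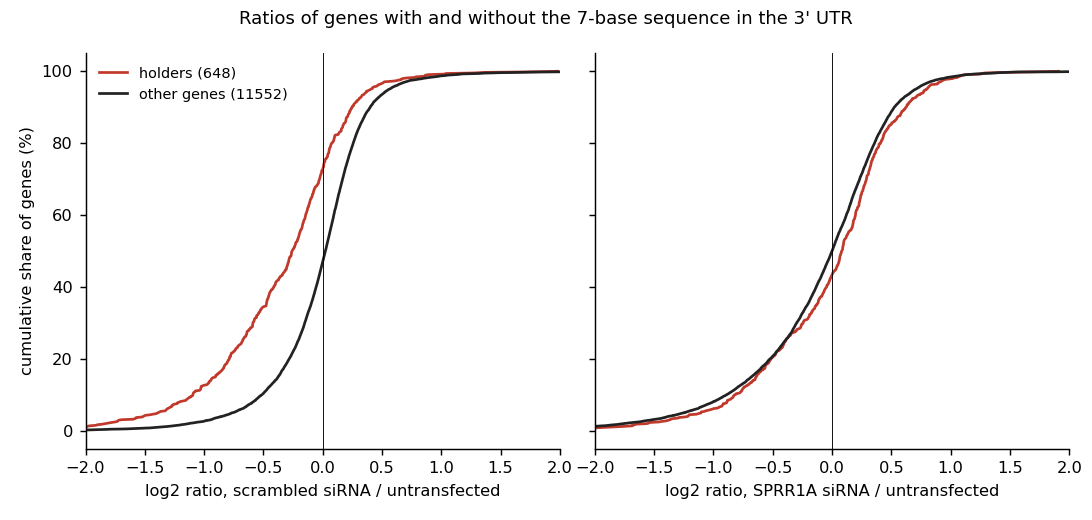
Cumulative share of genes (vertical axis) against the log2 ratio to the untransfected library (horizontal axis), for genes with and without GCAGTAC in the 3′ UTR. The left panel shows the scrambled siRNA library and the right panel the SPRR1A siRNA library. On the left, the curve of the 648 holders lies to the left of that of the 11552 other genes, with medians of -0.26 and 0.02. On the right, the median of the holders is 0.08.

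Keratin transcripts were the other large group below. Of 24 keratin genes kept, 12 were lower and none higher in the scrambled library, against 3.42% of all genes called lower, with a median log2 ratio of -0.96. Their summed level was 3407 CPM with the scrambled siRNA and 7283 CPM without transfection. KRT14, the basal keratinocyte filament protein, had 40129 counts in the scrambled library, against 112208 in the untransfected library, or 1104 CPM in scrambled and 2748 CPM in untransfected cells, and was 2.49-fold lower (2.46 to 2.52). KRT6A, a keratin of activated and wounded epidermis, had 1310 CPM in the scrambled library, against 2906 CPM in untransfected cells and was 2.22-fold lower (2.20 to 2.24). KRT16, its usual partner, had 235 CPM in scrambled cells and 555 CPM in untransfected cells and was 2.36-fold lower (2.31 to 2.42). The partner of KRT14 in basal cells, KRT5, was scarce, at 1.36 TPM after scrambled siRNA, against 5.51 TPM in untransfected cells, and 3.89-fold lower (2.86 to 5.36). KRT13, KRT15 and KRT19 were 2.20-fold, 2.93-fold and 2.21-fold lower.

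**Figure D3:**
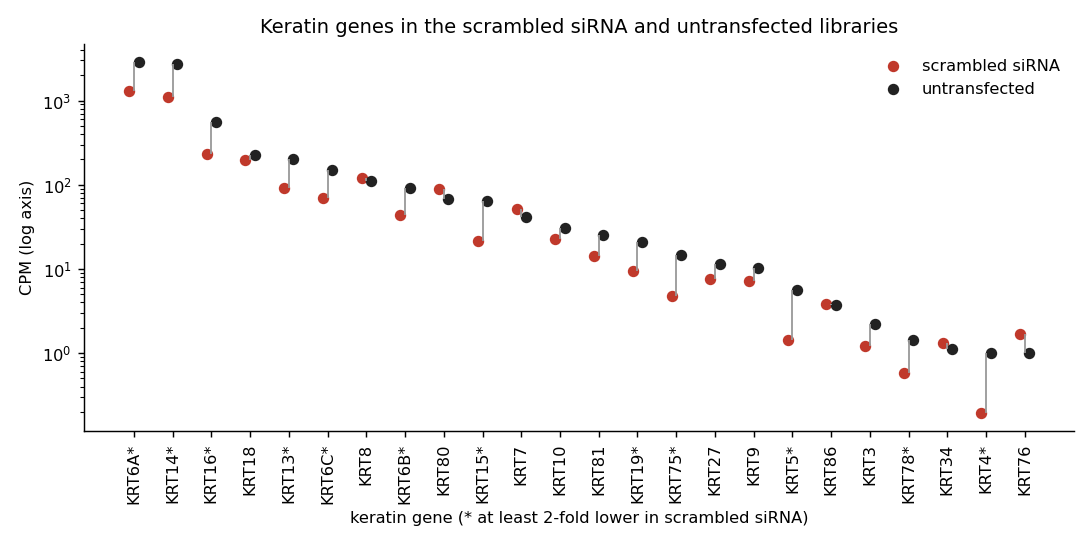
Levels of the kept keratin genes in CPM on a log axis, with the scrambled siRNA library in red and the untransfected library in black. The stratified-type keratins KRT14, KRT6A and KRT16 lie lower in the scrambled library, and the simple-type KRT8 and KRT18 lie close together.

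Of the keratins of simple epithelium, KRT19 was called lower, as given above, and KRT8, KRT18 and KRT7 were not called. KRT8 had 121 CPM with the scrambled siRNA and 110 CPM without transfection, KRT18 had 196 CPM in scrambled and 224 CPM in untransfected cells, and KRT7 had 51.0 CPM in scrambled and 40.8 CPM in untransfected cells. None of the 24 keratin genes holds GCAGTAC in its 3′ UTR, against 5.31% of all searched genes. KRT14 with KRT16 and KRT6A with KRT6B and KRT6C are near copies of one another and may trade reads, which leaves the value of each uncertain, although KRT6B (43.6 CPM in the scrambled library, against 91.8 CPM in untransfected cells) and KRT6C (70.2 CPM in scrambled and 148 CPM in untransfected cells) lay in the same direction. In bulk RNA fewer cells of a type and less RNA per cell cannot be told apart. Summed over 5 keratinocyte markers the level was 1442 TPM in scrambled cells and 3746 TPM in untransfected cells, almost all of it KRT14, and over 5 fibroblast markers it was 268 TPM in scrambled and 458 TPM in untransfected cells. The part of a shift in cell makeup in these ratios was not tested.

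The wider epithelial and keratinocyte list had 11 lower and 2 higher of 32 kept members, against 3.42% of all genes called lower and 1.52% higher, and a median of -0.60. The desmosome plaque gene DSP, which holds GCAGTAC, had 121 counts in the scrambled library, against 336 in the untransfected library and was 2.47-fold lower (2.002 to 3.068). The hemidesmosome gene ITGB4, at 8.06 CPM after scrambled siRNA, against 13.1 CPM in untransfected cells, was not called. Nor was the laminin gene LAMA3, at 37.2 CPM in scrambled and 32.8 CPM in untransfected cells. The higher members were scarce, namely the tight junction gene OCLN with 91 counts in the scrambled library, against 20 in the untransfected library and the P-cadherin gene CDH3 with 49 counts in scrambled and 19 counts in untransfected cells. Cornified envelope genes were split. SPRR2D had 254 counts in the scrambled library, against 74 in the untransfected library, SPRR2E had 208 counts in scrambled and 47 counts in untransfected cells, and both were called higher, while SBSN with 192 counts in scrambled and 588 counts in untransfected cells and TGM3 with 25 counts in scrambled and 80 counts in untransfected cells were called lower. SPRR2D and SPRR2E are close paralogues and their reads may be shared.

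Most connective tissue genes lay below 0 without a call. The fibroblast and fibrillar matrix list had 3 lower and 1 higher of 32 kept members, against 3.42% of all genes called lower and 1.52% higher, a median log2 ratio of -0.21 and 23 members below 0. VCAN, the proteoglycan versican, had 203 CPM with the scrambled siRNA and 425 CPM without transfection and was 2.09-fold lower (2.03 to 2.15). BGN, the proteoglycan biglycan, had 100.2 CPM in the scrambled library, against 215 CPM in untransfected cells and was 2.15-fold lower (2.07 to 2.23). COL5A3 had 15 counts in the scrambled library, against 55 in the untransfected library. Not called were COL1A1, at 430.1 CPM in scrambled cells and 710.2 CPM in untransfected cells, the PDGF receptor gene PDGFRA, at 132 CPM in scrambled and 243 CPM in untransfected cells, and COL6A3, the member with the most counts, at 1965 CPM in scrambled and 2781 CPM in untransfected cells. The fibrillar collagen genes COL5A2, at 172 CPM in scrambled and 109 CPM in untransfected cells, and COL1A2, at 189.7 CPM in scrambled and 148 CPM in untransfected cells, lay above 0 without a call. The higher member was thrombospondin 1 (THBS1), with 4.73 CPM after scrambled siRNA, against 2.08 CPM in untransfected cells.

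Of the 19 kept EMT factors and mesenchymal markers none was called, against 4.94% of all genes, with a median of -0.22. Vimentin (VIM) was level, at 3533 CPM with the scrambled siRNA and 3384 CPM without transfection, and CDH11, an osteoblast cadherin, had 51.5 CPM in scrambled and 84.6 CPM in untransfected cells. The Wnt list had no call among 17 kept members, against 4.94% of all genes, but 15 lay below 0 and the median was -0.44. Its receptor gene FZD1 had 8.45 CPM in the scrambled library, against 16.7 CPM in untransfected cells, and the feedback gene AXIN2 had 6.11 CPM in scrambled and 10.6 CPM in untransfected cells. β-catenin itself (CTNNB1) had 249 CPM in scrambled and 239 CPM in untransfected cells. Of 13 osteoblast genes kept, 1 was called lower and 1 higher, against 3.42% of all genes called lower and 1.52% higher. RUNX2, the osteoblast transcription factor and a holder of GCAGTAC, was 2.06-fold lower (1.82 to 2.33). It had 10.3 CPM in scrambled cells and 21.2 CPM in untransfected cells. SPP1, osteopontin, was higher, with 86 counts in the scrambled library, against 28 in the untransfected library.

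Members of TGF-beta signalling were found in both directions. The ligands TGFB1, with 44.7 CPM after scrambled siRNA, against 95.2 CPM in untransfected cells, and TGFB2, with 18 counts in scrambled and 54 counts in untransfected cells, were lower. The type I receptor TGFBR1 had 26.3 CPM with the scrambled siRNA and 54.1 CPM without transfection and was 2.06-fold lower (1.91 to 2.22), while the type II receptor TGFBR2 had 77.9 CPM in scrambled and 38.2 CPM in untransfected cells and was 2.04-fold higher (1.92 to 2.17). SMAD2, which carries the signal to the nucleus and holds GCAGTAC, had 34.9 CPM in the scrambled library, against 77.6 CPM in untransfected cells and was 2.22-fold lower (2.08 to 2.37), and its partner SMAD4 had 76.9 CPM in scrambled and 77.3 CPM in untransfected cells. The matricellular YAP target CCN1 had 138 CPM in scrambled cells and 54.1 CPM in untransfected cells and was 2.54-fold higher (2.42 to 2.67). Over the TGF-beta and YAP list 3 members were higher and 4 lower of 22, against 1.52% of all genes called higher and 3.42% lower, and the median was 0.26.

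The genes higher in the scrambled library included enzymes of carbonyl, nitric oxide and lipid metabolism. AKR1C1, an aldo-keto reductase that reduces carbonyls and steroids (Gene 1645, chromosome 10, 4963415 to 4983283), had 2451 counts in the scrambled library, against 674 in the untransfected library, or 67.4 CPM in scrambled and 16.5 CPM in untransfected cells. It was 4.09-fold higher (3.75 to 4.46). DDAH1, which degrades inhibitors of nitric oxide synthase, had 48.9 CPM after scrambled siRNA, against 12.3 CPM in untransfected cells and was 3.99-fold higher (3.61 to 4.41). UGCG, the glucosylceramide synthase, had 106 CPM with the scrambled siRNA and 33.9 CPM without transfection and was 3.11-fold higher (2.93 to 3.31). The stromelysin gene MMP3 had 490 counts in the scrambled library, against 116 in the untransfected library and was 4.75-fold higher (3.87 to 5.86), the farthest above of genes with at least 10 CPM. It was the only member called among 24 kept matrix proteases and inhibitors, against 4.94% of all genes called, and the list median was -0.04.

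Further genes of the 15 farthest above had no shared list. The GTPase-activating protein gene DLC1 had 58.8 CPM in the scrambled library, against 21.2 CPM in untransfected cells. The semaphorin gene SEMA7A had 100.7 CPM in scrambled cells and 40.3 CPM in untransfected cells, and the p38 kinase gene MAPK13 had 11.7 CPM in scrambled and 4.19 CPM in untransfected cells. GXYLT1, SCML2, FAM234B and TRIM16L were between 2.85-fold (GXYLT1) and 2.48-fold (SCML2) higher. The higher calls with the most counts were ANKRD52, a regulatory ankyrin of protein phosphatase 6, with 446 CPM after scrambled siRNA, against 199 CPM in untransfected cells, and HMGCS1, described with the sterol genes. LIMK1 and HMGA2 were called as well, at 110 and 107 CPM in the scrambled and 53.1 and 52.4 CPM in the untransfected library.

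The oxidative stress list, made of targets and regulators of the transcription factor NRF2, had 4 higher and no lower of 28 kept members, against 1.52% of all genes called higher, with a median of 0.38. AKR1B10, a further aldo-keto reductase, had 349 counts in the scrambled library, against 61 in the untransfected library and was 6.43-fold higher (4.89 to 8.58). AKR1C2 had 102 counts in the scrambled library, against 39 in the untransfected library, and AKR1C3, not called, had 176 counts in scrambled and 126 counts in untransfected cells. AKR1C1, AKR1C2 and AKR1C3 are close paralogues, and reads may be shared between them. The cystine transporter SLC7A11 had 178 CPM with the scrambled siRNA and 79.3 CPM without transfection and was 2.25-fold higher (2.15 to 2.34). Other members lay above 0 without a call, with thioredoxin reductase TXNRD1 at 506 CPM in the scrambled library, against 357 CPM in untransfected cells, NQO1 at 142 CPM in scrambled and 99.9 CPM in untransfected cells, and ferritin heavy chain FTH1 at 711 CPM in scrambled and 443 CPM in untransfected cells. The glutathione synthesis gene GCLM lay below, at 78.9 CPM in scrambled cells and 87.1 CPM in untransfected cells.

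The integrated stress response list had 2 higher and no lower of 26 kept members, SLC7A11 and SESN2, against 1.52% of all genes called higher, and 25 members lay above 0 with a median of 0.33. SESN2, a sestrin that restrains mTORC1, had 70.1 CPM after scrambled siRNA, against 30.7 CPM in untransfected cells and was 2.28-fold higher (2.13 to 2.44). The glutathione-degrading CHAC1 had 17.5 CPM with the scrambled siRNA and 9.70 CPM without transfection, and the amino acid transporter chain SLC3A2 had 564 CPM in scrambled and 345 CPM in untransfected cells. ATF4 itself had 457 CPM in the scrambled library, against 404 CPM in untransfected cells, and its partner DDIT3 had 43.9 CPM in scrambled and 42.8 CPM in untransfected cells. Of 22 ER chaperone and unfolded protein response genes none was called, against 4.94% of all genes, and the median was 0.17. HSPA5 had 958 CPM in scrambled cells and 642 CPM in untransfected cells. Cytosolic chaperones had no call in 17, against the same 4.94%. Their farthest members lay in opposite directions, with HSPB8 at 46.8 CPM after scrambled siRNA, against 29.7 CPM in untransfected cells and HSP90AA1 at 2085 CPM in scrambled and 2880 CPM in untransfected cells.

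Sterol genes stood above 0 as a group, by small amounts. Of 28 kept members 27 lay above 0, with a median log2 ratio of 0.47 against 0.01 for all genes. Of these members 1 was called, against 4.94% of all genes. HMGCS1, which makes HMG-CoA for the mevalonate pathway, had 287 CPM with the scrambled siRNA and 125 CPM without transfection and was 2.30-fold higher (2.23 to 2.38). The mevalonate decarboxylase MVD had 58.2 CPM in scrambled and 32.6 CPM in untransfected cells. The member below 0 was GGPS1, which leads away from sterols to geranylgeranyl lipids, with 32.6 CPM in scrambled cells and 38.3 CPM in untransfected cells. Against the same untransfected library the median of this list in the SPRR1A siRNA library was 1.05, so both transfected libraries lay above it. Fatty acid synthesis genes had no call in 17 and a median of 0.16, with FASN at 860 CPM after scrambled siRNA, against 700.3 CPM in untransfected cells.

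NF-kB and cytokine genes had 5 higher and 1 lower of 25 kept members, against 1.52% of all genes called higher and 3.42% lower, and a median of 0.43. BIRC3, an inhibitor of apoptosis induced by NF-kB, had 27.6 CPM with the scrambled siRNA and 8.86 CPM without transfection and was 3.11-fold higher (2.75 to 3.52). The interleukin-1 co-receptor gene IL1RAP had 16.0 CPM in the scrambled library, against 6.10 CPM in untransfected cells and was 2.62-fold higher (2.26 to 3.05), and the adaptor kinase IRAK2 was 2.21-fold higher (1.89 to 2.59). IL1A and CXCL2 were scarce, with 40 and 44 counts in the scrambled library, against 9 counts each in the untransfected library. IL1B was level, at 34.03 CPM in scrambled cells and 34.09 CPM in untransfected cells, and CXCL8 had 15.3 CPM in scrambled and 12.1 CPM in untransfected cells. Non-canonical subunits came close to the threshold without a call, with NFKB2 at 52.5 CPM after scrambled siRNA, against 27.0 CPM in untransfected cells and RELB at 11.4 CPM in scrambled and 5.80 CPM in untransfected cells. IL11 was lower, with 42 counts in the scrambled library, against 121 in the untransfected library.

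**Figure D4:**
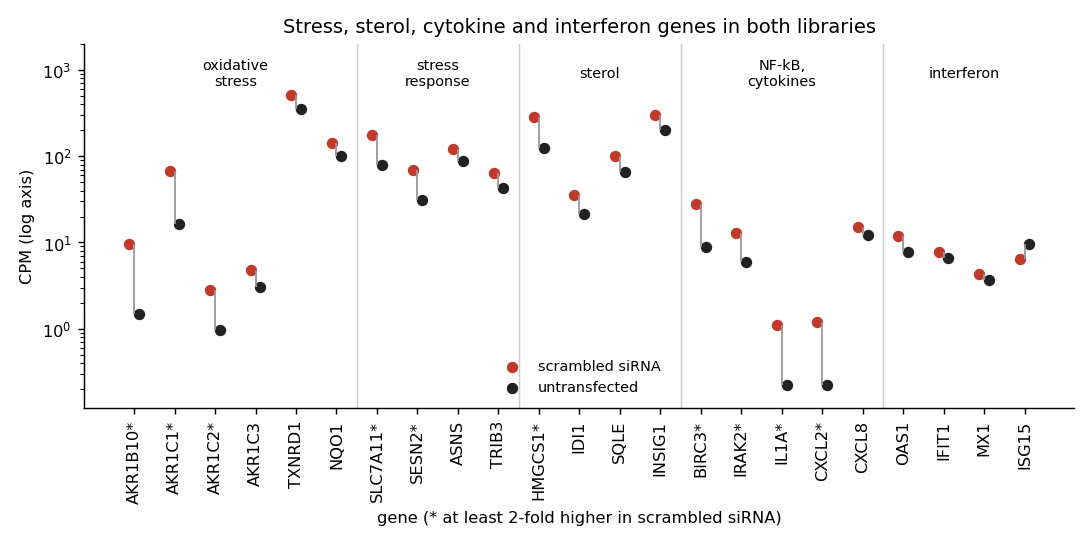
Levels of selected oxidative stress, stress response, sterol, NF-kB and interferon genes in CPM on a log axis, with the scrambled siRNA library in red and the untransfected library in black. AKR1B10 and AKR1C1 show the widest gaps of the oxidative stress genes, and IFIT1 and MX1 nearly coincide.

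Interferon genes were close to level. Of 27 kept interferon-stimulated effectors none was called in either direction, against 4.94% of all genes called, and the median log2 ratio was 0.06. IFIT1, which binds foreign RNA ends, had 284 counts in the scrambled library, against 273 in the untransfected library. MX1, an antiviral GTPase, had 157 counts in the scrambled library, against 148 in the untransfected library, and OAS3, an oligoadenylate synthetase, had 62.2 CPM in scrambled and 56.5 CPM in untransfected cells. IFIT3 lay farthest above, with 186 counts in the scrambled library, against 115 in the untransfected library, and HERC5 farthest below, with 82 counts in scrambled and 157 counts in untransfected cells. ISG15, the ubiquitin-like modifier, had 6.41 CPM with the scrambled siRNA and 9.57 CPM without transfection.

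Promoters of these effectors carried the interferon-stimulated response element far more often than promoters at large. The motif, TTTC followed by any 2 bases and TTTC, searched on both strands from 250 bases before to 50 after the start in RefSeq promoters on GRCh38.p14, was present in 16 of 24 effector promoters (66.7%) and in 300 of 10880 promoters of all kept genes (2.76%). Copies may overlap, as in ISG15. The windows below, on the gene's strand with the motif or its reverse complement in capitals, are from effectors whose levels hardly differed between the libraries, and from IFIT3.
IFIT1 (chr10:89392499-89392524, plus strand): agctttagTTTCACTTTCccctttcg
IFIT3 (chr10:89327867-89327892, plus strand): taaattagTTTCACTTTCcagtttcc
MX1 (chr21:41420561-41420586, plus strand): gcagaaatGAAACCGAAActgaattg
OAS3 (chr12:112938323-112938348, plus strand): aaagaaacGAAACTGAAAgcagggaa
BST2 (chr19:17405743-17405768, minus strand): ctttctggGAAACTGAAActgaaaac

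A sterol and an antioxidant element were searched in the same promoters. The sterol element TCACNCCAC was present in 1 of 22 sterol promoters, that of the sterol regulator SREBF2, and in 1.04% of all kept promoters. The antioxidant element TGACNNNGC was present in 3 of 19 NRF2 list promoters (15.8%) and in 15.3% of all kept promoters. TXNRD1 holds it in both orientations, and the windows of SREBF2 and TXNRD1 follow with the element in capitals.
SREBF2 (chr22:41832964-41832988, plus strand): acgcgccaTCACCCCACgcaccgct
TXNRD1 (chr12:104215672-104215696, plus strand): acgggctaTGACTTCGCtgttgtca
TXNRD1 (chr12:104215763-104215787, plus strand): gtccttcgGCTCCGTCAgttcccac

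The sensors of double-stranded RNA and interferon signalling genes had no call in 20 kept members, against 4.94% of all genes, and a median of 0.06. IFIH1 and TLR3 came closest, with 173 and 163 counts in the scrambled and 97 and 93 counts in the untransfected library. DDX58 had 8.01 CPM in the scrambled library, against 6.68 CPM in untransfected cells, and EIF2AK2 had 85.3 CPM in scrambled and 118 CPM in untransfected cells. MAVS, the mitochondrial adaptor of RIG-I and MDA5, lay farthest below, at 124 CPM in scrambled cells and 208 CPM in untransfected cells, and holds GCAGTAC. MHC class I genes were not called either, in 18 kept members with a median of 0.16, and HLA-B had 331 CPM with the scrambled siRNA and 214 CPM without transfection.

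The small RNA list covers the machinery that siRNAs use. Of its 15 kept members 2 were lower and none higher, against 3.42% of all genes called lower, and the median was 0.08. AGO2, the slicing Argonaute, had 194 CPM in the scrambled library, against 199 CPM in untransfected cells. AGO4 was 2.05-fold lower (1.72 to 2.46), with 4.92 CPM in scrambled cells and 10.1 CPM in untransfected cells, and holds GCAGTAC. TNRC6C, a GW182 scaffold of silencing, was 2.43-fold lower (2.11 to 2.82), with 7.15 CPM after scrambled siRNA, against 17.4 CPM in untransfected cells, and does not. The processing enzyme DICER1 had 93.9 CPM with the scrambled siRNA and 58.6 CPM without transfection. In the lysosome and autophagy list 1 of 31 members was called, against 4.94% of all genes. It was the lysosomal membrane gene LAMP2, a holder of GCAGTAC, with 49.8 CPM in the scrambled library, against 108 CPM in untransfected cells. The autophagy receptor SQSTM1 had 1193 CPM in scrambled cells and 698 CPM in untransfected cells, the largest difference above 0 in that list, without a call.

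**Figure D5:**
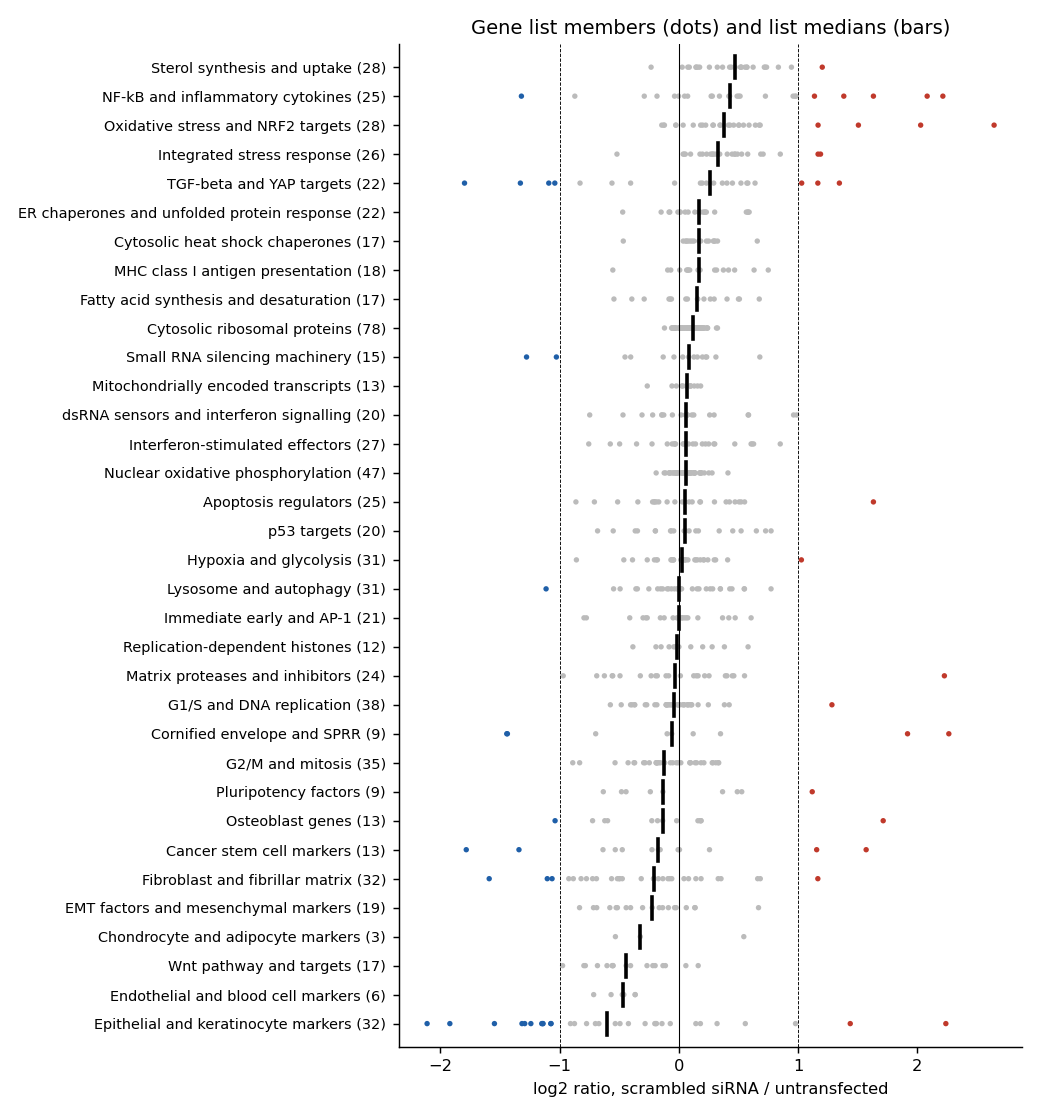
Log2 ratios of scrambled siRNA to untransfected for the kept members of each gene list (points) with the list median (bar). The sterol list has a median of 0.47 and the epithelial and keratinocyte list a median of -0.60, and 25 of the 34 lists have medians within 0.25 of 0.

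Housekeeping programmes were nearly identical between the libraries. None of 78 cytosolic ribosomal protein genes was called, with a median of 0.11, and none of 47 nuclear oxidative phosphorylation genes (median 0.06) or of 13 mitochondrially encoded genes (median 0.07). Calls were few among abundant genes in general, at 4.94% of all genes and 1.74% of those with at least 100 CPM. GAPDH had 8761 CPM after scrambled siRNA, against 8441 CPM in untransfected cells, and ACTB had 6990 CPM in scrambled and 5574 CPM in untransfected cells. Cell cycle genes were close to level. Of 38 G1/S genes 1 was called, against 4.94% of all genes, and the list median was -0.04. It was the phosphatase gene CDC25A, 2.44-fold higher (2.26 to 2.62), with 62.2 CPM with the scrambled siRNA and 25.5 CPM without transfection. No G2/M gene of 35 was called, and the members farthest below, the kinesin KIF11 and the spindle bundler PRC1, hold GCAGTAC and had 47.2 and 130 CPM in the scrambled and 87.5 and 231 CPM in the untransfected library. Among 20 p53 targets and 12 histone genes none was called. Among 25 apoptosis regulators BIRC3 was the only call, against 4.94% of all genes called. BCL2 had 10.2 CPM in the scrambled library, against 18.7 CPM in untransfected cells. The hypoxia list had 1 call in 31, against 4.94% of all genes called. It was ANKRD37, with 60 counts in the scrambled library, against 32 in the untransfected library.

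Reprogramming factor genes were not called. POU5F1 had 104 CPM in scrambled cells and 141 CPM in untransfected cells, SOX2 had 94.4 CPM in scrambled and 132 CPM in untransfected cells, KLF4 had 186 CPM in scrambled and 220 CPM in untransfected cells, and MYC had 541 CPM in scrambled and 420 CPM in untransfected cells. Counts per gene do not separate introduced copies from the cells' own genes. NANOG had 0 counts in both libraries. KLF2, called higher, had 26.8 CPM after scrambled siRNA, against 12.3 CPM in untransfected cells. Of 13 cancer stem cell markers kept, ALCAM and NGFR were lower and ABCG2 and ALDH1A1 higher, against 3.42% of all genes called lower and 1.52% higher. The drug efflux transporter ABCG2 had 375 counts in the scrambled library, against 188 in the untransfected library and was 2.24-fold higher (1.88 to 2.68). ALDH1A1, a retinal dehydrogenase, had 83 counts in the scrambled library, against 30 in the untransfected library, while ALDH1A3 had 414 CPM in scrambled and 416 CPM in untransfected cells. CD44 had 1503 CPM with the scrambled siRNA and 1675 CPM without transfection.

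Several of the most extreme ratios belonged to readthrough genes, which join the exons of neighbours and share their reads. TPTEP2-CSNK1E had 24 counts in the scrambled library, against 1626 in the untransfected library, but summed with the genes it joins the counts were 3775 in scrambled and 4029 in untransfected cells. JMJD7-PLA2G4B had 296 counts in the scrambled library, against 0 in the untransfected library, and the summed counts were 406 in scrambled and 468 in untransfected cells. Of 102 readthrough genes kept, 14 were higher and 15 lower, against 1.52% and 3.42% of all genes, and none of these 29 had a summed ratio of 2-fold or more. Where the joined genes held most of the counts, the sum could not reach 2-fold whatever the readthrough gene did. An example is ABCF2-H2BE1, with 5 counts in scrambled and 168 in untransfected cells, beside ABCF2 with 5095 and 6707. Reads may be shared with the joined genes, so the individual values are uncertain. Of the 5 genes with the highest CPM in 1 library and 0 counts in the other, JMJD7-PLA2G4B and ZFP91-CNTF were readthrough genes. CDRT4 had 172 counts in the scrambled library, against 0 in the untransfected library, but is joined in the readthrough gene TVP23C-CDRT4. Summed with that gene and TVP23C, the counts were 578 in scrambled and 459 in untransfected cells, so its value is uncertain too. The uncharacterised LOC107985946 and LOC107986929 had 78 and 71 counts in the scrambled library, against 0 in the untransfected library. No fold is given for these.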

How the data were processed

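RNA from 1 scrambled siRNA and 1 untransfected library, with 1 SPRR1A siRNA library beside them, was compared. The authors deposited whole-number read counts, FPKM and TPM per gene. The deposited TPM were used for levels between genes, and the deposited FPKM were not used further than to check their sums. HISAT2 2.1.0 and the build GRCh38 (hg38) are named in the submitters' processing notes. No source used here gives the counting tool, annotation or strand setting, so overlapping and antisense genes could share reads. No column was left unassigned.

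TMM factors (edgeR 4.0.16, R 4.3.3) were 0.995 for the scrambled, 1.02 for the untransfected and 0.986 for the SPRR1A siRNA library. Genes with at least 1 CPM of total counts, before TMM, in the scrambled or untransfected library were kept, and the alternative CPM filters used the same scale. Log2 ratios used a prior count of 2, and ratios carry exact conditional binomial 95% intervals for counting error. Calls needed 2-fold and an interval excluding 1, so they compare libraries and no p-value was computed. The procedure was tested on simulated data. The 3′ UTRs came from the longest basic coding transcript per gene in GENCODE release 29, and promoters, miRNAs and gene coordinates from RefSeq tables for GRCh38.p14. Of 14047 kept genes, 13949 matched the RefSeq gene table and 10880 had a promoter there.

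Named genes were the 15 farthest each way with at least 10 CPM, the 8 calls of highest CPM each way, the 4 members farthest from 0 and the most abundant of each list, the 5 highest with 0 counts in the other library, 12 holders of the leading 7-base sequence, reprogramming factors, GAPDH and ACTB, and paralogues of named genes. A few genes that this rule names are not reported here. All other genes named were chosen after their values were seen, as were GCAGTAC and its holders. The genes and the 34 lists were chosen with earlier results of these data known. Alternatives covered filters, scaling, prior count, thresholds and TPM.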

Additional observations from a re-analysis of the deposited data

How the results depend on the processing

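Against 213 higher and 481 lower genes, the counts were 78 and 231 with a filter of 5 CPM, 56 and 163 with a filter of 10 CPM, and 876 and 1323 with no filter. A 1.5-fold threshold gave 716 and 1368, a 3-fold threshold 57 and 123, and log2(TPM + 1) values gave 70 and 227. Fewer or more genes enter by construction under the filters and thresholds, and for log2(TPM + 1) the cause was not tested. Total counts without TMM, RLE factors, TMM from the 2 libraries, library sizes without the 100 most abundant genes, a prior count of 0.5 and 3 alternatives chosen after seeing the data (without readthrough genes and those they join, library sizes without rRNA genes, without holders of GCAGTAC) gave 191 to 224 higher and 399 to 520 lower genes. Without the 648 holders of GCAGTAC 207 were higher and 399 lower. Of the list medians recomputed, 334 stayed within the spread used and 6 moved, all under the filters of 5 and 10 CPM. Over 207 named genes, 1756 recomputed log2 ratios stayed within their counting interval and 240 moved out of it, 115 of them with log2(TPM + 1), 42 with library sizes without rRNA genes, 41 with total counts, 38 without the 100 most abundant genes and 4 with TMM from the 2 libraries. None of the 82 called genes among them changed sign. Of the 34 list medians 9 changed sign under 1 or more alternatives, among them matrix proteases, at 0.01 with each filter setting, and nuclear oxidative phosphorylation, at -0.01 with log2(TPM + 1). No paired analysis was possible because each group had 1 library, and no replicate could be left out. Each group being 1 library, the spread between cultures is not known, and differences at low counts are limited by depth.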
